A study of Homo sapiens with 24 samples.

Results

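Transcription by RNA Pol II phosphorylated on serine 5 (S5P) was compared with that by RNA Pol II phosphorylated on serine 2 (S2P) in irradiated U2OS cells, a line derived from an osteosarcoma. The comparison took every irradiated sequencing run of these 2 antibodies, 8 of the 24 runs in the series, and all 54377 genes of the deposited table. Nascent RNA held by the precipitated polymerase was sequenced (mNET-seq), and reads were counted over the gene body, from 200 bp downstream of the TSS to the TES. All irradiated cells received 10 Gy, and the labels put this at 10 min while the methods give another time. The cells are labelled wild type, so that the antibody is the one difference between the groups compared. Nonirradiated cells with the same 2 antibodies served as the reference comparison, and libraries of a tyrosine 1 antibody (Y1P) entered the fit only to estimate the spread.

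The carboxy-terminal domain of RPB1, the largest subunit of RNA Pol II, is a long run of heptapeptide repeats whose serines are phosphorylated in a cycle. TFIIH-associated CDK7 places S5P near the promoter, where it helps to recruit capping enzymes. P-TEFb (CDK9), CDK12 and CDK13 raise S2P as the polymerase elongates, and S2P helps to recruit splicing and 3′ end processing factors. S5P polymerase is also known in mNET-seq for carrying splicing intermediates. The libraries hold short RNA, so that processed ends of snoRNAs and spliceosomal RNAs in a nascent complex can be sequenced along with the growing transcript.

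Each replicate number had been sequenced in 2 runs, and their sums gave 2 libraries of each antibody. The irradiated libraries held 17212084 (S5P replicate 1), 25656851 (S5P replicate 2), 33144659 (S2P replicate 1) and 16220773 counts (S2P replicate 2). S2P replicate 1 stood apart: it had the most counts, and the smallest part of them fell on snoRNA-hosting genes, 9.65%, against 16.6% in S2P replicate 2, 14.1% in S5P replicate 1 and 20.4% in S5P replicate 2. Of 15 markers of osteosarcoma and mesenchymal cells 0 lacked counts, and their levels summed to 1186 to 1597 CPM, that is, counts scaled to a common library size. Of 22 markers of other lineages, 4 were at 0 in these 4 libraries (HBA1, INS, NKX2-1 and TNNT2), and the list summed to 28.1 to 36.8 CPM. Each library is scaled to its own total, so that a difference in the amount of S5P and S2P polymerase as a whole is not measured. In bulk libraries, fewer cells with a transcript and less transcript per cell cannot be told apart.

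Few genes differed between the antibodies in the main fit of 12 libraries, which took in nonirradiated cells and Y1P. The number depended on the fit: at an adjusted p under 0.05 it was 1664 in the 6 irradiated libraries alone and 0 with no replicate block. Of 21246 genes with enough counts, 6 were higher (0.0282%) and 12 lower (0.0565%) with S5P by a log2FC beyond 1 and an adjusted p under 0.05 (edgeR quasi-likelihood test, Benjamini-Hochberg adjustment). With no demand on the fold beyond 0.1, the study's own threshold, 23 genes were higher (0.108%) and 26 lower (0.122%). At an unadjusted p under 0.05, 1529 genes were higher (7.2%) and 1429 lower (6.73%). The log2 ratio of S5P to S2P had an SD across genes of 0.448 between the libraries of replicate 1 and 0.404 between those of replicate 2, whereas 2 libraries of the same antibody differed by an SD of 0.419 (S5P) and 0.452 (S2P). Over all genes, the ratio of the antibodies thus spread about as widely as the ratio of replicates. The antibody ratios of the 2 replicate pairs had a Pearson r of 0.252 across genes. Of the 26 genes that were lower with S5P, 24 had their highest level in S2P replicate 1. Without that library 1 of the 49 genes passed the threshold, SNORD3B-2, although all 49 kept their direction, and the same gene alone passed without S5P replicate 1. The libraries of the groups did not overlap in 42 of the 49, beside 21.9% of all genes with both S5P libraries above and 19.7% with both below.

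**Figure D1:**
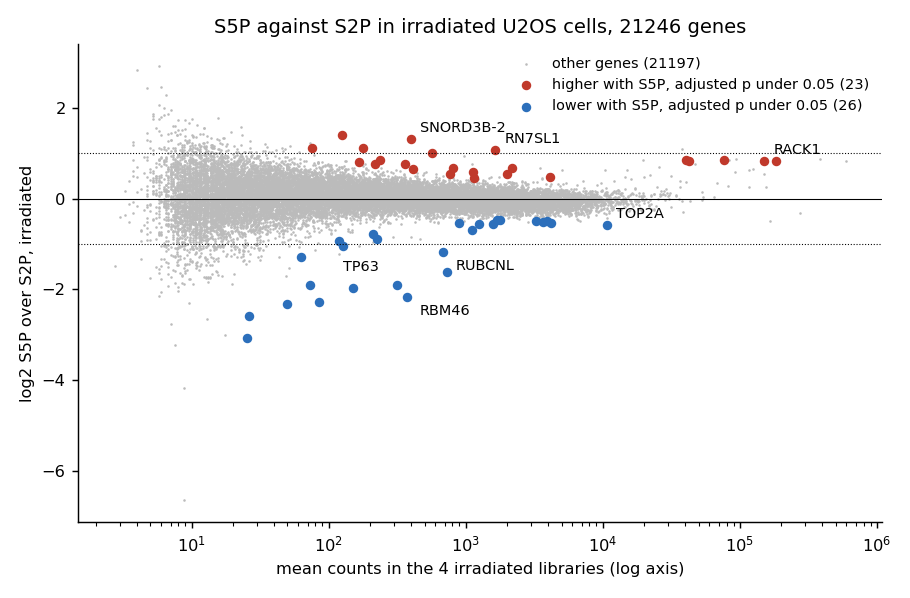
Each point is a gene, placed by its mean counts in the 4 irradiated libraries (log axis) and its fitted log2 ratio of S5P to S2P; dotted lines mark a log2 ratio of 1 and -1. The 23 genes higher with S5P (red) include several of the most abundant in the data, such as RACK1, whereas RBM46 and TP63, both below -1, lie among genes of modest counts.

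The clearest gains with S5P were at genes of small noncoding RNAs and at some of the genes that host them. Box C/D snoRNAs guide ribose methylation of ribosomal RNA and are mostly cut from introns of host genes. In GENCODE 911 of 991 snoRNA and scaRNA genes are at most 200 bp long, and 0 of these 911 have an entry in the table, since the counted window starts beyond their end. A read in such a snoRNA thus has no entry of its own, and it lies in the counted window of its host on the same strand. The box C/D snoRNA nearest the 5′ end of each of the 5 host genes that passed the threshold is printed here, to make plain which processed RNA lies inside each counted window. Box C (TGATGA, first match) and box D (CTGA, last match) are in capitals, in the hg38 sequence of the host strand. Of 301 SNORD genes of at most 200 bp, 73.1% hold TGATGA on their own strand and 1.33% on the other, and 96.7% and 22.3% hold CTGA. A match describes these letters only.
SNORD95 in RACK1, chr5:181243312-181243379, minus strand: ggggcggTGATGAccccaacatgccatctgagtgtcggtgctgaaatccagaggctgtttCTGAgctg
SNORD43 in RPL3, chr22:39319050-39319113, minus strand: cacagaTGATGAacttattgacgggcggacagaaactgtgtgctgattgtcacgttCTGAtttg
SNORD68 in RPL13, chr16:89561434-89561517, plus strand: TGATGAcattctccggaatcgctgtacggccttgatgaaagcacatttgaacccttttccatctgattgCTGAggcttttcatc
SNORD19 in GNL3, chr3:52689248-52689315, plus strand: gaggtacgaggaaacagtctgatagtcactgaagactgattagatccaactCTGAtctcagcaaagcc
SNORD88C in C19orf48P, chr19:50802328-50802418, minus strand: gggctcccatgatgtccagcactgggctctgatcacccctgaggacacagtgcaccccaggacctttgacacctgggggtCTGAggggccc

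RACK1, a scaffold protein of the small ribosomal subunit that holds 2 snoRNAs, measured 5505 and 11290 CPM with S5P and 2588 and 7380 CPM with S2P (replicates 1 and 2). The groups overlapped, since S2P replicate 2 lay above S5P replicate 1, but S5P exceeded S2P within both replicate numbers. Its log2FC was 0.83 (SE 0.17, adjusted p = 0.0345). In the next 3 genes the groups overlapped in the same way. RPL3, a protein of the large ribosomal subunit with 3 snoRNAs inside, measured 7070 and 13250 CPM with S5P and 3586 and 8130 CPM with S2P (log2FC 0.84, adjusted p = 0.0345). RPL13, also of the large subunit, measured 1723 and 2980 CPM with S5P and 831.1 and 1908 CPM with S2P (log2FC 0.84, adjusted p = 0.027). GNL3, which encodes the nucleolar GTPase nucleostemin and holds 6 annotated snoRNAs, measured 2663 and 5909 CPM with S5P and 1279 and 3740 CPM with S2P (log2FC 0.84, adjusted p = 0.0345). C19orf48P, a unitary pseudogene with 3 snoRNAs inside, measured 1844 and 2625 CPM against 882.9 and 1682 CPM (log2FC 0.84, adjusted p = 0.0115), with no overlap. The 5 log2FC were nearly equal, and within each gene replicate 2 exceeded replicate 1 with either antibody. Without S2P replicate 1 they ran from 0.56 in RACK1 to 0.67 in RPL3 and did not pass the threshold.

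Over all 96 tested genes with a SNORD gene inside on their strand, 5 were higher past the adjusted p (5.21%, beside 0.108% of all genes) and 0 lower, and 34 were higher and 6 lower at an unadjusted p under 0.05, beside 7.2% and 6.73% of all genes. Their median log2FC was 0.14, with 0.18 in the replicate 1 pair and 0.11 in the replicate 2 pair. This group was formed after its values were seen and has no test, and its 5 genes past the adjusted p are those described above. Genes with a box H/ACA snoRNA inside, the class that guides pseudouridylation, had a median of 0.053 over 113 genes, and 0 passed the adjusted p, with 25 higher and 7 lower at an unadjusted p under 0.05. The medians of the SNORD and H/ACA groups were 0.12 and -0.0091 without S2P replicate 1. The list of 31 tested snoRNA host lncRNAs had a median of 0.32 (0.43 and 0.28 in the replicate pairs), and 14 of them were higher and 1 lower at an unadjusted p under 0.05, beside 9.2% and 2.93% of all lncRNA genes. GAS5, an abundant host whose snoRNAs are not annotated inside it in GENCODE 44, measured 14830 and 27980 CPM with S5P and 7105 and 17110 CPM with S2P, with a log2FC of 0.88 that did not pass the threshold (adjusted p = 0.0751). ZFAS1 (log2FC 0.76) and SNHG19 (0.69) did not pass it either. Genes under 20 kb with a snoRNA inside had a median of 0.20 over 99 genes, and protein-coding genes under 20 kb with no snoRNA inside one of 0.053 over 4423 genes. These medians were 0.056 and 0.016 without S2P replicate 1, and that of the host lncRNAs was 0.24. Host genes of all kinds and lengths lay near 0, with a median of 0.034 over 331 genes, beside 0.020 over all genes. The 265 protein-coding hosts had a median of 0.012, and -0.011 without S2P replicate 1. Of these 265, 37 were higher and 24 lower at an unadjusted p under 0.05, beside 6.25% and 8.41% of protein-coding genes. The share of counts on host genes differed more between the replicate numbers of an antibody than between the antibodies within a replicate number. Its part in these values was not tested.

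SNORD3B-2, one of the genes for U3 snoRNA, which acts in processing of the ribosomal RNA precursor, had the smallest adjusted p of all genes. It measured 18 and 31 CPM with S5P and 7.35 and 12.3 CPM with S2P, so that both S5P libraries lay above both S2P libraries. The level was 2.49 times as high with S5P (log2FC 1.31, SE 0.13, adjusted p = 2.9e-05), with near equal ratios in the replicate pairs (1.29 and 1.33 on the log2 scale). It was the one gene that still passed without S2P replicate 1 (log2FC 1.30, adjusted p = 0.00211). SNORD3B-2 lies at chr17:19063346-19064136 on the minus strand (hg38), and its counted window is what follows the first 200 bp. The start of the gene is thus not counted, and a higher count need not mean more mature U3 RNA. Reads that fit other U3 genes as well were left out as multimapping. SNORD3B-2 passed the adjusted p in 13 of the 17 alternative settings that tested it.

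RN7SL1 and RN7SL3, genes of the 7SL RNA of the signal recognition particle, are normally transcribed by RNA polymerase III. RN7SL1 measured 80.2 and 114.6 CPM with S5P and 27.1 and 72.7 CPM with S2P (log2FC 1.06, SE 0.18, adjusted p = 0.0122). RN7SL3 measured 5.36 and 10.5 CPM against 1.41 and 5.23 CPM (log2FC 1.40, SE 0.27, adjusted p = 0.0345). Reads that fit both copies were left out of the counts as multimapping, so that the split between these near-identical genes is uncertain. In both genes the lowest level was that of S2P replicate 1, and without that library the log2FC was 0.61 in RN7SL1 and 0.94 in RN7SL3, neither past the threshold.

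The 3 lncRNA genes (0.0524% of those tested) that were higher with S5P by a log2FC above 1 also overlap genes of structural RNAs on the same strand. ENSG00000270022, at chr22:42615244-42615907, starts at the first base of RNU12, the snRNA U12 of the minor spliceosome, and measured 9.85 and 11.1 CPM with S5P and 4.2 and 5.41 CPM with S2P (log2FC 1.10, SE 0.23, adjusted p = 0.0443). ENSG00000287190, at chr1:146050441-146052244 on the minus strand, begins with RNVU1-6, a variant U1 snRNA, and measured 3.57 and 5.32 CPM against 1.69 and 2.32 CPM (log2FC 1.12, SE 0.22, adjusted p = 0.0345). For both, the first 200 bp were left out of the counted window, which therefore lies downstream of the snRNA. ENSG00000280441, at chr21:8380643-8454792, spans 2 genes of 5.8S ribosomal RNA and measured 30 and 36.4 CPM against 11.7 and 22.7 CPM (log2FC 1.01, SE 0.17, adjusted p = 0.0165). In all 3 genes both S5P libraries lay above both S2P libraries, as they did in 28.4% of all tested lncRNA genes. Without S2P replicate 1 the log2FC were 1.24, 1.23 and 0.67, and none passed the threshold.

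The 12 remaining genes higher with S5P, all at a log2FC under 1, hold no annotated snoRNA. TOB1, an antiproliferative protein, measured 11 and 15.1 CPM with S5P and 6.64 and 7.55 CPM with S2P, with no overlap of the groups (log2FC 0.84, adjusted p = 0.0345). Its log2FC was 1.01 without S2P replicate 1 (adjusted p = 0.334). GCAT, a mitochondrial enzyme of threonine breakdown, and GNG7, a G protein γ subunit, had a log2FC of 0.48 and 0.45. The pseudogene ENSG00000260157 had a log2FC of 0.54. The 5 further lncRNA genes in this tier had log2FC from 0.58 to 0.76, and 3 of them lie on chromosome 19 (ENSG00000267605, ENSG00000267053 and ENSG00000266977).

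**Figure D2:**
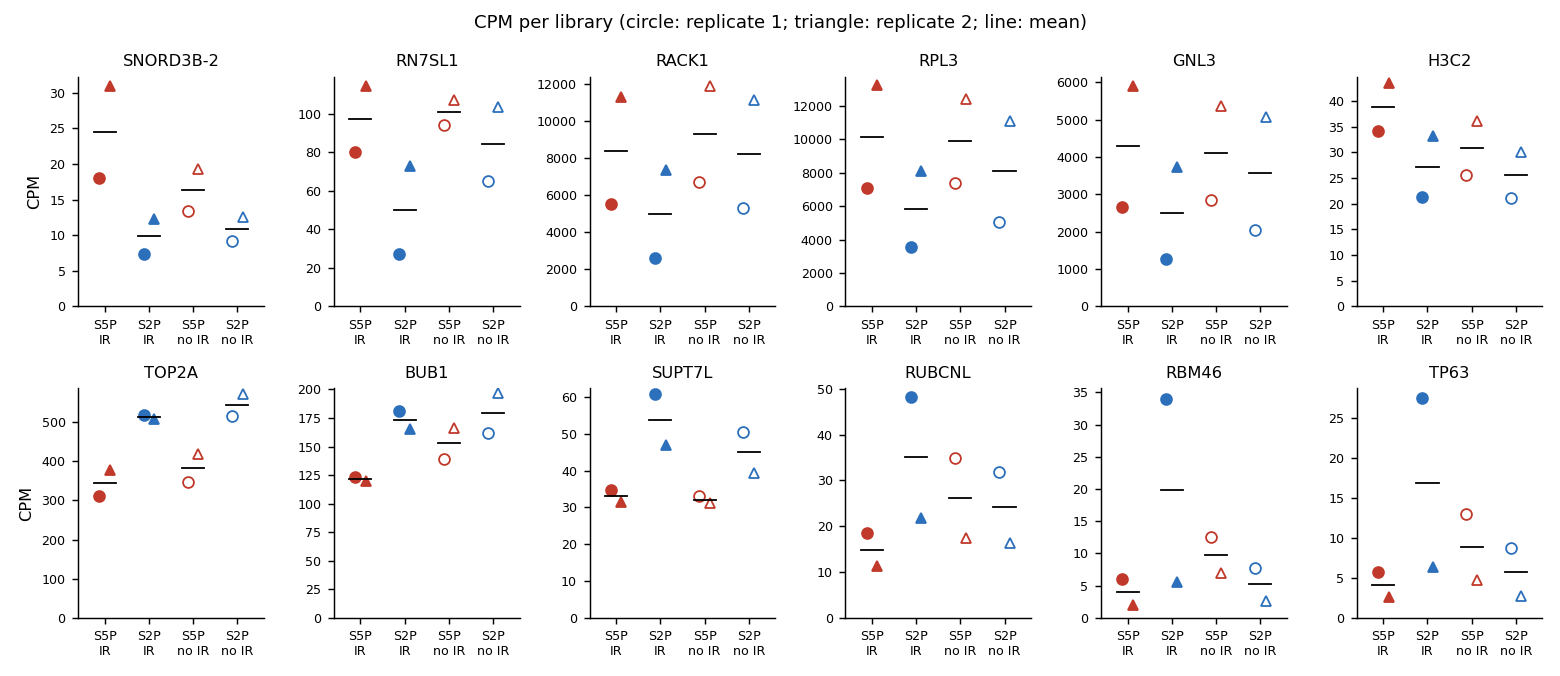
CPM of 12 genes in the S5P (red) and S2P (blue) libraries of irradiated (filled) and nonirradiated cells (open), with the 2 replicates and their mean; each axis starts at 0. In SNORD3B-2 and TOP2A the irradiated groups do not overlap. In TP63 and RBM46 the library of S2P replicate 1 of irradiated cells lies far above the rest, and in RUBCNL it is the highest by a smaller margin.

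Short genes without introns and genes of the mitochondrial genome were also on the S5P side. Replication-dependent histone genes have a single exon, and their messages end in a stem-loop in place of a poly(A) tail. Of 68 such genes 37 had enough counts, and their median log2FC was 0.39 (0.58 and 0.19 in the replicate pairs). Of the 37, 35 lay above 0 and 23 were higher at an unadjusted p under 0.05, with 0 lower, beside 6.25% higher among all protein-coding genes. H3C2, a histone H3 gene, passed the adjusted p, with 34 and 43.5 CPM with S5P and 21.2 and 33.2 CPM with S2P (log2FC 0.53, SE 0.10, adjusted p = 0.0345). H2BC12 (log2FC 0.70), H2AC20 (0.55) and H2AC11 (0.49) did not pass it. The median of the list without S2P replicate 1 was 0.32.

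The 13 protein genes of the mitochondrial genome, which a polymerase other than RNA Pol II transcribes, had a median log2FC of 0.41, and all 13 lay above 0. MT-ND4, a subunit of complex I, passed the adjusted p with 108.8 and 121.6 CPM with S5P and 60.6 and 85.1 CPM with S2P (log2FC 0.68, SE 0.14, adjusted p = 0.0449). MT-ND5 measured 174.7 and 197.3 CPM against 89.4 and 149.2 CPM (log2FC 0.67, adjusted p = 0.0705), and MT-CYB had a log2FC of 0.40 (adjusted p = 0.139). The median fell from 0.41 to 0.22 without S2P replicate 1. The mitochondrial genome held 0.284% and 0.35% of counts with S5P and 0.212% and 0.308% with S2P. Cytosolic ribosomal protein genes had a median of 0.15 over 76 genes, of which 62 lay above 0, and 23 were higher and 1 lower at an unadjusted p under 0.05, beside 6.25% and 8.41% of protein-coding genes. Those 28 with a snoRNA inside had a median of 0.31, and the 48 without one had a median of 0.11, which became 0.077 and 0.033 without S2P replicate 1. RPS12 (log2FC 0.85) and RPL21 (1.09) did not pass the threshold (adjusted p = 0.0625 and 0.0685). The list's median was 0.050 without S2P replicate 1.

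On the other side, the largest decreases were in genes with little transcription in these cells. TP63, a transcription factor of the p53 family that directs squamous epithelium, measured 5.68 and 2.56 CPM with S5P and 27.5 and 6.3 CPM with S2P. The groups did not overlap, but S2P replicate 1 lay far above the other 3 libraries. The log2FC was -1.91 (SE 0.22, adjusted p = 0.000154), and without S2P replicate 1 it was -1.42 (adjusted p = 0.0918). RBM46, an RNA-binding protein of germ cells, measured 6.01 and 2.05 CPM with S5P and 34 and 5.59 CPM with S2P, so that S5P replicate 1 lay above S2P replicate 2 (log2FC -2.17, SE 0.33, adjusted p = 0.00671). RUBCNL, which acts in autophagy, measured 18.4 and 11.2 CPM against 48.2 and 21.8 CPM with no overlap (log2FC -1.18, SE 0.16, adjusted p = 0.0019), and without S2P replicate 1 it stood at -1.12 (adjusted p = 0.0628).

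SNTG1, a syntrophin, measured 2.92 and 3.27 CPM with S5P and 8.05 and 4.99 CPM with S2P (log2FC -1.04, adjusted p = 0.0433). ACTG2, the smooth muscle γ actin, measured 1.41 and 1.34 CPM against 3.9 and 2.91 CPM (log2FC -1.29, adjusted p = 0.0493). TSPAN16 and SERPINB11, a tetraspanin and a serpin, were lower still (log2FC -2.29 and -2.60), on mean counts of 84.8 and 26. SERPINB11 falls outside the rule on counts for named genes and is given to complete the list of 7 protein-coding calls, 0.0477% of those tested. All 12 of the genes lower by more than 1, lncRNAs included, were highest in S2P replicate 1. Their median log2FC was -1.94, and -1.29 without that library, where 0 of the 12 passed the threshold (1091 genes at an unadjusted p under 0.05 there).

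Of the 5 lncRNA genes lower with S5P by more than 1 (0.0873%), ENSG00000275016 was the most abundant, with 16.5 and 7.22 CPM with S5P and 60.2 and 16.4 CPM with S2P (log2FC -1.61, SE 0.29, adjusted p = 0.027). Its groups overlapped by a small margin. The others, ENSG00000285409, ENSG00000285681, ENSG00000286738 and ENSG00000287479, had log2FC from -3.07 to -1.91 on mean counts of 25.5 to 149.8. ENSG00000287479 was also under the count rule. Its S5P libraries held 0.379 and 0 CPM.

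A feature shared by several genes lower with S5P was a copy of U2 inside them on the same strand. U2 is the snRNA that pairs with the branch point of introns, and the genome holds many pseudogene copies of it. Of 26 tested genes that hold such a copy, 4 were lower past the adjusted p (15.4%, beside 0.122% of all genes) and 0 higher: RBM46 with 2 copies, ENSG00000275016, RUBCNL and GSKIP. This group was formed after its values were seen and has no test. Other families of small RNA were looked through in the same way, and U2 was the one with the most genes lower past the adjusted p. Y RNA followed with 1 of 261 genes. Of the 26, 17 were lower with S5P in both replicate pairs (beside 31% of all genes) and 3 higher in both (35.2%), and 11 were lower and 1 higher at an unadjusted p under 0.05 (6.73% and 7.2% of all genes). Their median log2FC was -0.19 (-0.26 and -0.081 in the replicate pairs) and -0.12 without S2P replicate 1. In 17 of the 26, these 4 genes among them, S2P replicate 1 was the highest of the 4 irradiated libraries. In nonirradiated cells the log2FC of RBM46, ENSG00000275016, RUBCNL and GSKIP were 1.02, 0.54, 0.11 and -0.034. Of 71 annotated U2 genes and copies 69 are at most 200 bp long, of which 0 have an entry in the table. GSKIP, which binds the kinase GSK3β, measured 6.82 and 5.56 CPM with S5P and 11.7 and 9.27 CPM with S2P, with no overlap (log2FC -0.77, adjusted p = 0.0345). The 10 tested genes with a copy of U5, another spliceosomal RNA, had a median of -0.28 and 0 past the adjusted p, whereas 389 genes with a U6 copy had a median of -0.045 and also 0. No difference between these groups was tested.

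The copies inside RUBCNL, ENSG00000275016 and GSKIP are shown against RNU2-2P, a full-length U2 sequence inside WDR74. Capitals mark bases that differ from RNU2-2P or have no partner in it (global alignment, match 1, mismatch -1, gap -2). By this alignment the copies were identical to RNU2-2P over 90.1%, 89.6% and 81.8% of positions. The copies inside RBM46, not printed, were the least alike of those aligned, RNU2-44P at 69.7% and RNU2-66P at 65.1%.
RNU2-2P, chr11:62841619-62841809, minus strand: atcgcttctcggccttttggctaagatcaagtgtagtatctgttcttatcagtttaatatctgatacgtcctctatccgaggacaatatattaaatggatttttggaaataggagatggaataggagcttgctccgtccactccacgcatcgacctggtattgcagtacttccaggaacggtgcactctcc
RNU2-6P in RUBCNL, chr13:46374401-46374590, minus strand: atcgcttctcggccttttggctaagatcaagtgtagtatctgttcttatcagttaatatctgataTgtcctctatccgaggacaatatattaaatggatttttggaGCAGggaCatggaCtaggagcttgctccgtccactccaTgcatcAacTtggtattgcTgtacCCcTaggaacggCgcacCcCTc
RNU2-3P in ENSG00000275016, chr15:95745804-95745994, plus strand: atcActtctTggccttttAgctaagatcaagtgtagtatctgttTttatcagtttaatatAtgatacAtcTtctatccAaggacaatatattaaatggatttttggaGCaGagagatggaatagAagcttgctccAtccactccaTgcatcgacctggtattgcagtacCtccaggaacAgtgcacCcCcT
RNU2-33P in GSKIP, chr14:96384624-96384815, plus strand: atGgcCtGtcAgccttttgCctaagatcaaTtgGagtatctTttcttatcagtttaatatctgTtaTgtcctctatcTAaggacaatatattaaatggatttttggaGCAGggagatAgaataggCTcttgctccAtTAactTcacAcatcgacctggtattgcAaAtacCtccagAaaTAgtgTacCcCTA
WDR74 itself, with the RNU2-2P copy inside, measured 28.4 and 37.6 CPM with S5P and 30.1 and 33.6 CPM with S2P (log2FC 0.025). Whether RNU2-2P lies in the first 200 bp of WDR74, which are not counted, was not examined. The value may thus hold no reads over this copy and cannot be set beside those of the 3 genes above.

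The other 14 genes lower with S5P had a log2FC between -1 and 0. TOP2A, the topoisomerase that untangles DNA before mitosis, measured 311.7 and 377.3 CPM with S5P and 518.5 and 507.2 CPM with S2P. The groups were well separated (log2FC -0.58, SE 0.094, adjusted p = 0.0115). BUB1, a kinase of the spindle checkpoint, measured 123.1 and 119.5 CPM against 181.3 and 165.6 CPM (log2FC -0.52, SE 0.096, adjusted p = 0.0272). SMC3 of cohesin (log2FC -0.49) and SMC6 of the SMC5/6 repair complex (-0.47) passed the adjusted p, as did the kinesins KIF5B (-0.54), KIF20B (-0.49) and KIF22 (-0.47) and the centrosomal protein CEP290 (-0.56). These 8 genes have 14 to 54 exons, and both S5P libraries lay below both S2P libraries in each, as in 22.9% of all protein-coding genes. SUPT7L, a subunit of the SAGA coactivator with 6 exons, measured 34.6 and 31.5 CPM against 60.9 and 46.9 CPM (log2FC -0.70, SE 0.10, adjusted p = 0.00373). It and TOP2A each passed in 13 of 18 alternative settings. The translation factor subunit EIF3F (-0.56), the GTPase ARF5 (-0.88), CCDC186 (-0.55) and the lncRNA gene ENSG00000289084 (-0.95) were lower too. Without S2P replicate 1 TOP2A stood at -0.50 and BUB1 at -0.40, and neither passed the threshold.

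Of 33 tested mitotic genes 28 lay below 0, with a median log2FC of -0.25 (-0.32 and -0.14 in the replicate pairs). TOP2A and BUB1 passed the adjusted p, and 20 were lower and 0 higher at an unadjusted p under 0.05, beside 8.41% lower among all protein-coding genes. CENPE, a kinesin of the kinetochore, and CCNA2, cyclin A2, had log2FC of -0.49 and -0.52 just beyond the threshold (adjusted p = 0.0508 and 0.0537). The median of the list was -0.18 without S2P replicate 1 and ran from -0.34 to -0.18 over all settings. The lists of double-strand break signalling and repair genes (34 tested, median -0.13), Integrator subunits (15, -0.14) and pausing and elongation factors (24, -0.14) also lay below 0. So did cleavage and polyadenylation factors (25, -0.10) and heat shock genes (28, -0.10). Each of these lists had 0 members past the adjusted p, near the shares over all genes (0.108% higher and 0.122% lower). The medians of the Integrator and the pausing lists were -0.079 and -0.078 without S2P replicate 1. ATM, the kinase that responds to double-strand breaks, measured 254.8 and 261.4 CPM with S5P and 357.7 and 305.9 CPM with S2P (log2FC -0.36, adjusted p = 0.0816). The lists below 0 had median exon numbers of 12 to 18 in these cases, against 9 for all protein-coding genes.

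**Figure D3:**
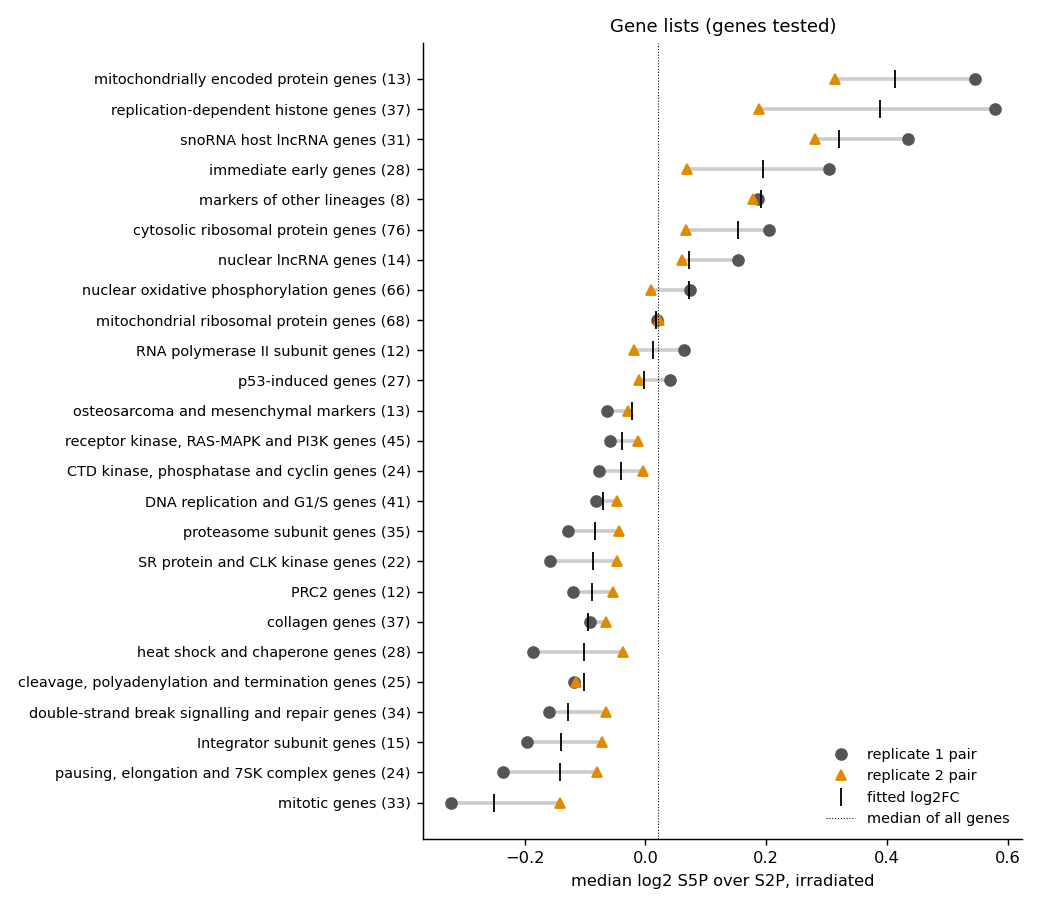
Median log2 ratio of S5P to S2P in irradiated cells for each gene list, with the number of genes tested: circles for the replicate 1 pair, triangles for the replicate 2 pair and bars for the fit; the dotted line is the median of all genes. Histone, mitochondrially encoded and snoRNA host lncRNA genes lie furthest to the right and mitotic genes furthest to the left. The replicate 1 pair is mostly the further of the 2 from 0.

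In protein-coding genes, the difference between the antibodies followed the number of exons more closely than gene length. Among 14661 protein-coding genes the median log2FC was 0.28 in the 277 genes with 1 exon, 0.13 with 2 to 4, 0.041 with 5 to 9, -0.047 with 10 to 19 and -0.12 in the 2445 genes with 20 or more (exons of the canonical transcript). The share higher with S5P at an unadjusted p under 0.05 was 24.9% in genes with 1 exon and 0.654% in genes with 20 or more, and the share lower was 0.361% and 23%. Across genes, which are not independent replicates and share libraries, the log2 ratio had a Spearman rho with the number of exons of -0.41 in the replicate 1 pair and -0.21 in the replicate 2 pair. With gene length rho was -0.26 and -0.068. Within genes of 30 to 100 kb, rho with exons was -0.39 and -0.24 and with length -0.080 and -0.030. Within genes of 10 to 30 kb it was -0.39 and -0.21 with exons and -0.055 and -0.00996 with length.

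The same order was seen in the counts of each library. Genes with 20 or more exons held 33.7% and 31.9% of protein-coding counts with S5P and 37.6% and 33.9% with S2P, and single-exon genes held 0.363% and 0.373% against 0.266% and 0.335%. The groups did not overlap in either class, although S5P replicate 1 and S2P replicate 2 nearly met in the many-exon class. Replicates of S2P also differed along this axis: the log2 ratio of S2P replicate 2 to replicate 1 had a rho of -0.34 with the number of exons, and that of S5P replicate 2 to replicate 1 one of -0.049. Set against S2P replicate 2, S5P replicate 1 gave a rho of -0.11, and set against S2P replicate 1, S5P replicate 2 gave one of -0.40. Without S2P replicate 1 the fitted rho was -0.26, beside -0.38 with it. Long lncRNA genes also fell on the S2P side, with a median of 0.34 under 2 kb (795 genes) and of -0.11 over 300 kb (319 genes). In nonirradiated cells these medians were 0.51 and 0.15, so that the long lncRNA genes were on the S5P side there. By number of exons, the irradiated medians of lncRNA genes did not fall throughout. They were 0.32 with 1 exon, 0.14 with 2 to 4, -0.024 with 5 to 9, -0.017 with 10 to 19 and 0.081 in the 21 genes with 20 or more.

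**Figure D4:**
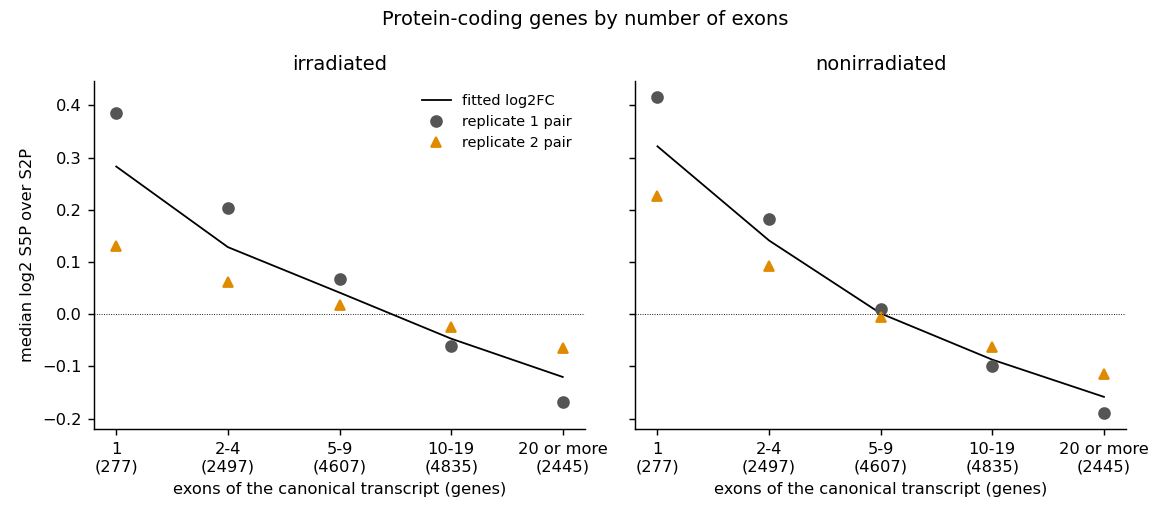
Median log2 ratio of S5P to S2P of protein-coding genes by number of exons, in irradiated (left) and nonirradiated cells (right): line for the fit, circles for the replicate 1 pair and triangles for the replicate 2 pair. In both panels and both pairs the medians fall from single-exon genes to genes with 20 or more exons, from 0.28 to -0.12 in the fit of irradiated cells.

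Genes of CTD regulators and p53-induced genes had medians near 0, whereas immediate early genes lay above it. Of 24 CTD kinases, phosphatases and cyclins 0 passed the adjusted p, with a median log2FC of -0.041. Over all genes 0.108% were higher and 0.122% lower past it, so that 0 in a list this short is near that share. The S5P phosphatase SSU72 measured 79.9 and 87.3 CPM with S5P and 59.3 and 76.2 CPM with S2P (log2FC 0.31, adjusted p = 0.109), and the kinases CDK9 (-0.31) and CDK12 (-0.16) lay on the other side. The 12 RNA Pol II subunit genes had a median of 0.012, with POLR2A, which encodes RPB1, at -0.14. Of 27 p53-induced genes 0 passed, with a median of -0.0029. CDKN1A, the p21 inhibitor of cyclin-dependent kinases, measured 113.9 and 106.4 CPM with S5P and 79.5 and 95.6 CPM with S2P (log2FC 0.34, SE 0.11, adjusted p = 0.171), and BBC3, which encodes PUMA, had a log2FC of 0.37. Immediate early genes, which are short, had a median of 0.19 over 28 genes, of which 9 were higher and 0 lower at an unadjusted p under 0.05, beside 7.2% and 6.73% of all genes. NR4A1 (log2FC 0.36), IER2 (0.42) and FOSB (0.53) did not pass the adjusted p. The median of the list dropped to 0.016 without S5P replicate 1.

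PRC2 genes had a median of -0.089 over 12 genes. EZH2, the methyltransferase of that complex, measured 84.3 and 87.2 CPM with S5P and 97 and 93.2 CPM with S2P, with no overlap but short of the adjusted threshold (log2FC -0.15, SE 0.081, adjusted p = 0.426). ABL1, the kinase that phosphorylates tyrosine 1 of the CTD, measured 214.1 and 216.6 CPM against 210.6 and 204.6 CPM (log2FC 0.052, SE 0.093). ASXL1, PPP4R2 and USP34 had log2FC from -0.23 to -0.0014, with adjusted p from 0.285 to 0.997. Collagen genes (37 tested, median -0.095), DNA replication genes (41, -0.070), proteasome genes (35, -0.083) and SR protein genes (22, -0.086) had 0 members past the adjusted p. So did receptor kinase pathway genes (45, -0.038), nuclear oxidative phosphorylation genes (66, 0.072) and mitochondrial ribosomal protein genes (68, 0.018). These zeros are near the shares over all genes (0.108% higher and 0.122% lower). Without S2P replicate 1 the medians of the PRC2, collagen, receptor kinase and oxidative phosphorylation lists were -0.054, -0.047, -0.019 and 0.015, and those of mitochondrial ribosomal protein and RNA Pol II subunit genes turned to -0.0072 and -0.024. MALAT1, an abundant nuclear lncRNA, measured 4866 and 6032 CPM with S5P and 8543 and 6799 CPM with S2P (log2FC -0.49, adjusted p = 0.149), whereas NEAT1, the lncRNA of paraspeckles, had a log2FC of 0.25.

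As a class, lncRNA genes lay above protein-coding genes. The median log2FC was 0.12 over 5727 lncRNA genes and -0.0038 over protein-coding genes, and 9.2% of lncRNA genes were higher and 2.93% lower with S5P at an unadjusted p under 0.05. Divergent transcripts, which start upstream of a coding gene on the other strand, had a median of 0.21 over 430 genes, antisense lncRNAs one of 0.14 over 916 and LINC genes one of 0.023 over 864 and miRNA host genes one of 0.046 over 56. The last 2 medians turned to -0.021 and -0.042 without S2P replicate 1. Of these 4 name classes 0 genes passed the adjusted p, beside 0.108% higher and 0.122% lower among all genes. Zinc finger genes of chromosome 19 had a median of 0.10 over 198 genes, above the -0.0038 of all protein-coding genes, with a median of 5 exons, and one of 0.065 without S2P replicate 1.

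In nonirradiated cells the same comparison gave 0 genes past the adjusted p (edgeR), with 1835 higher (8.64%) and 2034 lower (9.57%) at an unadjusted p under 0.05. Of the 23 genes higher with S5P after irradiation, 21 were on the same side in nonirradiated cells, with a median log2FC of 0.83 after irradiation and 0.28 without. Genes picked by their irradiated values are expected to lie nearer 0 in other libraries, so that the smaller median is no result about irradiation. SNORD3B-2 measured 13.4 and 19.3 CPM with S5P and 9.14 and 12.5 CPM with S2P there (log2FC 0.59), and ENSG00000270022 and ENSG00000287190 stood at 1.09 and 1.03. Of the 26 genes lower with S5P, 16 were on the same side. TOP2A measured 347.1 and 419.6 CPM against 515 and 573.2 CPM (log2FC -0.51), close to the -0.58 of irradiated cells. The exon trend was present as well, with a rho of -0.36 and -0.28 in the nonirradiated pairs and medians from 0.32 with 1 exon to -0.16 with 20 or more. The medians of mitochondrially encoded genes (0.11), U2-bearing genes (-0.081), snoRNA host lncRNAs (0.25) and cytosolic ribosomal protein genes (0.095) lay nearer 0 than after irradiation. Those of histone genes (0.45), mitotic genes (-0.27), divergent transcripts (0.33), LINC genes (0.26) and all lncRNA genes (0.29) lay further from 0. Differences between irradiated and nonirradiated medians were not tested. The U2-bearing group was formed after its irradiated values were seen, so that the same limit holds for it.

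The interaction, that is, the S5P to S2P ratio of irradiated cells over that of nonirradiated cells, passed an adjusted p under 0.05 in 5 genes (0.0235%), with 1152 genes (5.42%) at an unadjusted p under 0.05. In all 5 S5P was below S2P after irradiation and above it without. TP63 measured 12.9 and 4.74 CPM with S5P and 8.76 and 2.7 CPM with S2P in nonirradiated cells, and its interaction was -2.56 (log2, SE 0.31, adjusted p = 0.00101). RBM46 measured 12.5 and 6.98 CPM against 7.76 and 2.65 CPM there (interaction -3.19, adjusted p = 0.0132). The syntrophin SNTG1 (-1.82, adjusted p = 0.029), RUBCNL (-1.29, adjusted p = 0.0438) and ZNF236-DT, a divergent lncRNA gene (-1.64, adjusted p = 0.029), were the others. In each, the highest of the 8 values was that of S2P replicate 1 of irradiated cells, and in nonirradiated cells replicate 1 exceeded replicate 2 with both antibodies. Without that library TP63 still passed (-2.04, adjusted p = 0.0488), whereas the other 4 genes had an adjusted p of 0.335. Without S5P replicate 1 of irradiated cells 0 genes passed the interaction test.

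**Figure D5:**
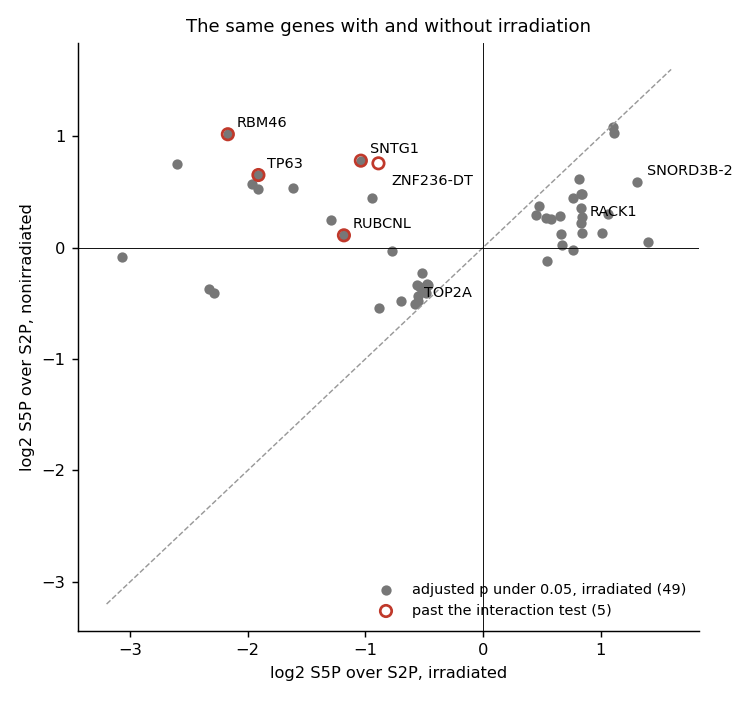
Fitted log2 ratio of S5P to S2P in irradiated (x axis) and nonirradiated cells (y axis) of the 49 genes past the adjusted p in irradiated cells (grey) and the 5 past the interaction test (red rings); the dashed line marks equal ratios. TP63, RBM46, SNTG1, RUBCNL and ZNF236-DT lie in the upper left, below 0 after irradiation and above 0 without, while TOP2A lies near the line of equal ratios.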

How the data were processed

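The authors deposited raw counts of reads per gene body, made by trimming with cutadapt 1.8.3, alignment to hg38 with STAR, removal of multimapping and internally primed reads and of PCR duplicates, and stranded counting with featureCounts. Of 55399 entries, 1022 were repeats without counts. Gene classes, exons and positions came from GENCODE 44, in which 120 IDs (0.0116% of counts) were not found. Runs of one replicate number in both sequencing batches agreed within sampling noise or nearly so (chi-square over its degrees of freedom 1.06 to 1.10) and were summed; different replicate numbers gave 10 to 70.2. Which cultures the replicate numbers stand for is not stated, so that the p-values rest on a spread that may be technical.

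The 12 libraries (6 groups, 16220773 to 33144659 counts) were fitted with edgeR 4.0.16 (R 4.3.3): filterByExpr, TMM factors, a term for each group, the replicate number as a block, and glmQLFTest with Benjamini-Hochberg adjustment over 21246 genes. Same-numbered libraries deviated together (Pearson r over 15 pairs of groups 0.156 to 0.367), and the block follows the methods' batch term. CPM values are TMM-scaled. The procedure was tested on simulated counts. Named genes were the called genes with a mean of at least 50 counts and one direction in both pairs (up to 12 protein-coding and 6 lncRNA a side), up to 4 members a list by p, genes the paper discusses and genes past the interaction test; the 31 further genes past the adjusted p, and the groups with a small RNA inside, were added after their values were seen. Lists and members were chosen with earlier results of these data known. Lists and trends are descriptions with no test. Alternatives were other scaling factors, filters, gene sets, libraries and thresholds, no block, DESeq2 1.42.0, removal of a length trend, and leaving out each library. A few items are not reported here.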

Additional observations from a re-analysis of the deposited data

Results flagged for a closer look

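For 5 genes the effect of the antibody differed between irradiated and nonirradiated cells by the interaction test of edgeR. The difference (log2, irradiated minus nonirradiated) was -2.56 in TP63, -3.19 in RBM46, -1.82 in SNTG1, -1.29 in RUBCNL and -1.64 in ZNF236-DT. In all 5 the library of S2P replicate 1 of irradiated cells held the highest level. Without it TP63 still passed (-2.04, adjusted p = 0.0488), and the other 4 genes did not (adjusted p = 0.335). Without S5P replicate 1 of irradiated cells, or with no replicate block, 0 genes passed. Groups of 2 libraries are too small for a check of single outlying samples.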

How the results depend on the processing

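All 49 genes past the adjusted p kept their direction in every setting that tested them. The replicate block decided the calls: with no replicate block 0 genes were called (1338 at an unadjusted p under 0.05) and 0 passed the interaction test, and the 4 irradiated libraries alone without the block also gave 0. DESeq2 on the same libraries called 0 beyond a log2FC of 1 (137 at an adjusted p under 0.05) and glmTreat 0. The 6 irradiated libraries with the replicate block gave 41 higher and 67 lower (protein-coding 6 and 34, lncRNA 26 and 29). At an adjusted p under 0.05 alone, that fit gave 1664 genes, 765 higher and 899 lower. DESeq2 on the 8 runs gave 18 and 17 (protein-coding 2 and 7, lncRNA 10 and 8). No filter on low counts gave 24 and 36 (protein-coding 4 and 18, lncRNA 12 and 15, interaction 116). The fit of the 8 runs took repeat runs of one library as replicates, which understates the spread between libraries. Library totals alone gave 1 and 4 (protein-coding 0 and 3, lncRNA 0 and 1, interaction 1), the stricter filter 1 and 2 (protein-coding 0 and 2, lncRNA 0 and 0, interaction 1) and protein-coding genes alone 0 and 3 (interaction 1). With the length trend removed 2 were higher (lncRNA 1) and 14 lower. Upper quartile factors gave 4 protein-coding genes lower and 2 lncRNA genes higher, and relative log expression factors 2 lncRNA genes higher and 10 interactions. The threshold of 0.1 gave 23 and 26 (protein-coding 10 and 20, lncRNA 8 and 6). Leaving out one library gave 1 to 14 genes higher and 0 to 28 lower (protein-coding 0 to 5 and 0 to 12, lncRNA 0 to 5 and 0 to 15, interaction 0 to 19). The lowest counts came without S2P replicate 1 or S5P replicate 1, with SNORD3B-2 the call left without the former. In these fits the lone library of an antibody is assumed to vary like the other groups. The cause of these changes was not tested. The number of libraries limits every call.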
